A study of Homo sapiens with 16 samples.

Results

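Dexamethasone (Dex) was added to MM1S myeloma cells that also received TAK-981, an inhibitor of the SUMO-activating enzyme, and RNA-seq of this combination (combo) was compared with RNA-seq of TAK-981 alone. The comparison holds 4 of the 16 libraries of the series, MM1S combo replicates 1 and 2 and MM1S TAK-981 replicates 1 and 2, which were taken by their labels. All 23354 genes of the count table entered, and 14215 of them passed the filter on low counts and were tested. MM1S is a B lymphoblast line of human multiple myeloma labelled as glucocorticoid sensitive. Its counterpart MM1R is labelled as resistant. Each line had received vehicle, 0.1 μM TAK-981, 1 μM Dexamethasone or both for 48 h in duplicate. All 4 libraries of the comparison thus carry TAK-981 at the same dose and differ by Dex. Each line is a single culture model without stroma or immune cells, and the labels do not say whether the duplicates were separate cultures, so p-values measure the spread between these libraries.

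Dex is a synthetic glucocorticoid. It binds the glucocorticoid receptor (GR, encoded by NR3C1), which leaves its chaperone complex, enters the nucleus and binds DNA at palindromic elements, where it raises some genes, and it also lowers others, many of them targets of NF-κB and AP-1. In lymphoid cells, myeloma included, glucocorticoids halt proliferation and can start the mitochondrial pathway of cell death through proteins such as BIM. SUMOylation attaches a small protein, SUMO, to lysines of many nuclear proteins, GR among them, and TAK-981 blocks its first step.

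The comparison describes what Dex did in cells given TAK-981 for the same 48 h, and not after a prior block of that step. A sequence view of its ends comes first, from RefSeq promoter windows that run from 250 bases before to 50 bases after each gene start (GRCh38.p14). C1QB, which had 0 counts in both TAK-981 libraries and 243 and 306 in combo, is shown because it held a full GR element in its window. The element, the full palindromic GR consensus searched on both strands, is in capitals in the 29 bases at chr1:22652988-22653016, plus strand, centred 234 bases before the gene start.
C1QB: ttcccccaGGACAGCGTGTTCtccccaca
For the genes that fell, sites of the E2F factors, which drive S phase genes, were searched as TTTNNCGC on both strands. Capitals mark the match, and a match on the other strand is printed as its reverse complement. The examples are CLSPN at chr1:35769968-35769991 (minus strand), DTL at chr1:212035732-212035755 (plus), E2F1 at chr20:33686492-33686515 (minus) and NCAPG at chr4:17810949-17810972 (plus). They were chosen as DNA replication or mitotic genes, among the named genes that fell, for which a site was found. GAPDH, also named, fell and held a site that is not printed. E2F1 held further sites, and not every named gene that fell gave a site.
CLSPN: ctggctggGCGGGAAAgcaagaac
DTL: gacgtcagTTTGGCGCggagtttg
E2F1: ggtccggcGCGTTAAAgccaatag
NCAPG: acgttcgaGCGGTAAAtactccct
Of all 27305 promoter windows in the table, 106 (0.388%) held the GR element and 1884 (6.90%) held the E2F site. These windows include many of genes that were not tested, so their shares are no base for the list that follows. A window was matched by symbol for 53 of the 63 tested genes of the DNA replication list below, and 29 of these 53 (54.7%) held an E2F site. The list was written to hold known E2F targets, so this share is no independent result. Windows were matched for 78.5% of the genes that rose and 78.5% of all tested genes, under the 80% needed, so no share of a motif is compared between sets of tested genes. A match of letters is a description of the window and not a measured binding site.

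Adding Dex to TAK-981 changed 4990 of 14215 genes (35.1%) at an adjusted p under 0.05 (edgeR quasi-likelihood F test with Benjamini-Hochberg adjustment, used throughout). Of these, 2063 (14.5% of those tested) rose and 2927 (20.6%) fell, and the counts of lists below are to be read against these shares. With libraries scaled by size only, 2519 rose and 2552 fell. When only the 4 libraries of the comparison were fitted, 3368 genes passed, 1499 up and 1869 down. Where a value follows a gene name alone, or a gene rose or fell by a value, it is a log2 fold change of combo against TAK-981. Most changes were small, with a median size of 0.48 on the log2 scale among the changed genes. With the further limit of a 2-fold change, 359 genes rose and 621 fell, together 6.89% of those tested. Beyond a log2 fold change of 2 in size there were 97 genes that rose and 83 that fell. The combo and TAK-981 libraries did not overlap for 8585 genes (60.4%), with combo above in 3959 (27.9%) and below in 4626 (32.5%). Total counts of the 4 libraries ran from 15707587 to 19714364, against 15707587 to 24796539 over all 16, and the TAK-981 pair differed more from each other than the combo pair did (chi-square per degree of freedom over genes 21.2 and 4.63). Plasma cell markers summed to 8509 and 7712 CPM (counts per 1000000 counts after TMM normalization) in TAK-981 and to 4620 and 4547 CPM in combo. Of 27 markers of other cell types 9 were tested, CD3D, NKG7, ELANE and HBA1 were at 0 counts in all MM1S libraries while HBB (22 to 69 counts), CD3E (6 to 65), ITGAM (17 to 71), PDGFRB (6 to 58) and PECAM1 (7 to 245) were not, and the list summed to 24.9 and 25.8 CPM in TAK-981 and 8.48 and 10.7 CPM in combo. The part of these markers in the results was not tested. In such bulk RNA, fewer cells of a kind and less RNA per cell cannot be told apart.

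The mRNA of GR itself changed little. NR3C1 was at 357 and 318 CPM in the TAK-981 libraries and 286 and 278 CPM in the combo libraries, a log2 fold change of −0.26 (standard error 0.07, adjusted p = 0.0073). This call was lost without TAK-981 replicate 1, at −0.17 (adjusted p = 0.06), and without combo replicate 2, at −0.24 (adjusted p = 0.06). Among 29 genes of GR, its chaperones and its cofactors, 9 rose (31.0%) and 5 fell (17.2%). FKBP5, the co-chaperone that lowers hormone binding of GR, had the smallest adjusted p of all genes. It was at 40.3 and 43.7 CPM in TAK-981 and 3025 and 3107 CPM in combo, a 72.98-fold rise with a log2 fold change of 6.19 (standard error 0.078, adjusted p = 2.4e-20). The chromatin remodelling subunit ARID1A rose by a log2 fold change of 0.67, and the immunophilin PPID fell by 0.29 on the log2 scale, which did not pass without combo replicate 2 (−0.24, adjusted p = 0.07). HSD11B1, the enzyme that regenerates active glucocorticoid from its inert form, fell from 3.01 and 2.11 CPM to 0.867 and 0.77 CPM (log2 fold change −1.64).

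Known glucocorticoid-induced genes mostly rose. Of 48 tested, 29 rose, 5 fell and 14 did not pass, and their median log2 fold change was 0.45 against −0.02 over all genes. ZBTB16, the transcriptional repressor PLZF, went from 0.415 and 0.669 CPM to 60.2 and 62.7 CPM, with a log2 fold change of 6.81 (standard error 0.17, adjusted p = 1.4e-15). TSC22D3, which encodes the glucocorticoid-induced leucine zipper GILZ, was at 49.7 and 58.3 CPM in TAK-981 and 632 and 662 CPM in combo (log2 fold change 3.58). For both genes the combo pair lay far above the TAK-981 pair. The mTORC1 inhibitor DDIT4 stood at 33.6 and 61.5 CPM without and 1380.3 and 1443 CPM with Dex, a log2 fold change of 4.89 (standard error 0.22, adjusted p = 5.3e-09), and its TAK-981 libraries lay further apart in ratio than its combo libraries did. The interleukin 7 receptor IL7R rose from 0.156 and 0.257 CPM to 14.6 and 15.6 CPM (log2 fold change 6.15). RASD1, a Ras-like protein named for its induction by Dex, rose from 1.56 and 2.26 CPM to 7.99 and 12.9 CPM (log2 fold change 2.45). Against the direction of the list, the kinase SGK1 fell from 126 and 126 CPM to 82.6 and 85.99 CPM, a log2 fold change of −0.58 (standard error 0.061, adjusted p = 5e-07), and the choline transporter SLC44A1 fell by 0.53.

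The 12 leading genes that rose, those with the smallest adjusted p, included FKBP5, ZBTB16 and TSC22D3 described above. CXCR4, the receptor for the marrow chemokine CXCL12, was at 27.4 and 27.2 CPM in TAK-981 and 535 and 551 CPM in combo, a 19.9-fold rise with a log2 fold change of 4.31 (standard error 0.074, adjusted p = 3.2e-18). SMAP2, which activates the GTPase of ARF proteins, was at 191 and 201 CPM and then 1187 and 1244 CPM (log2 fold change 2.63). PFKFB2, which sets the level of the glycolytic activator fructose 2,6-bisphosphate, was at 105 and 104 CPM and then 502 and 521 CPM (log2 fold change 2.29). In each of the 12 genes the combo pair was above the TAK-981 pair, as the rule that chose them required. The remaining members were the fatty acyl-CoA reductase FAR2 (3.26), the kinase LRRK1 (2.10), the mRNA decay factor ZFP36L2 (1.86), CCND3 for cyclin D3 (2.83), the semaphorin receptor PLXNA1 (2.19) and RCSD1 (1.71), all as log2 fold changes. The genes shown from the other end were ITGA8, CCL3, FAM111B, SCD, LGALS17A, DTL, HLA-DRA, NLRP7, CD74, PHLDA1 and NCAPG, and their log2 fold changes lay between −2.95 (CCL3) and −1.57 (CD74). ITGA8, an integrin alpha chain, fell from 408 and 404 CPM to 105 and 107 CPM, 3.83-fold lower.

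**Figure D1:**
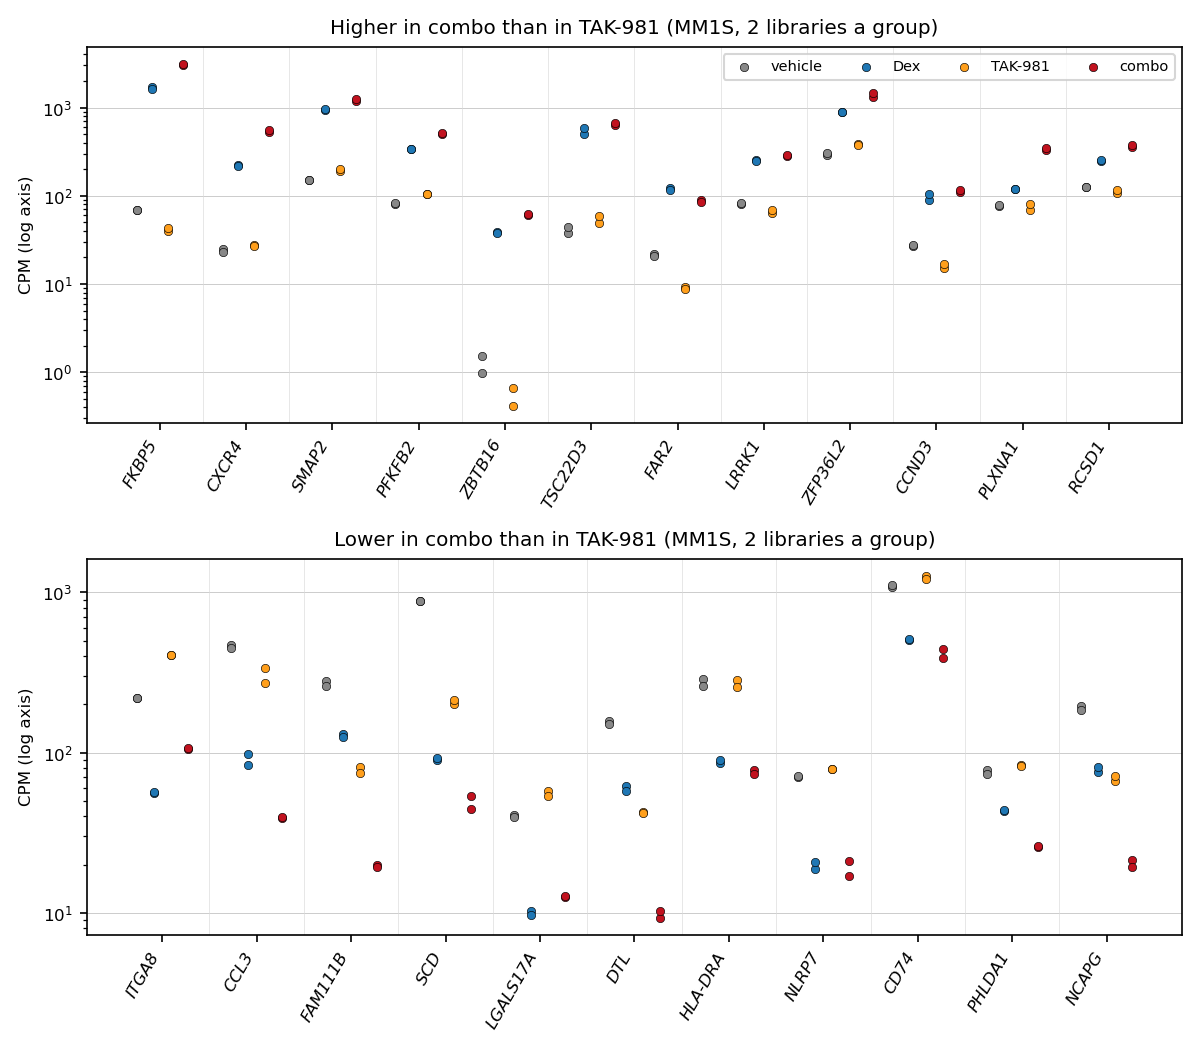
CPM on a log axis of the 12 genes that rose (top) and 11 of the 12 that fell (bottom) with the smallest adjusted p in combo against TAK-981, with 1 point for each of the 8 MM1S libraries and colours for the 4 treatments. The 2 combo points lie on a single side of the 2 TAK-981 points in each gene by the rule of choice, as for FKBP5 at 3025 and 3107 against 40.3 and 43.7 CPM.

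Among genes of cell death BIM and CFLAR rose and BCL-XL and BIRC5 fell. In the BCL2 family 3 of 15 tested genes rose (20%) and 4 fell (26.7%), near the shares over all tested genes, with a list median of −0.04, which was 0.01 when libraries were scaled by size only. BCL2L11, which encodes the death-promoting BIM, was at 234 and 241 CPM in TAK-981 and 359 and 372 CPM in combo, a log2 fold change of 0.62 (standard error 0.056, adjusted p = 6.3e-08). BMF, which also promotes death, rose from 406 and 447 CPM to 614 and 669 CPM (log2 fold change 0.59). BCL2L1, which encodes the survival protein BCL-XL, fell from 569 and 617 CPM to 252 and 262 CPM, a log2 fold change of −1.20 (standard error 0.065, adjusted p = 5.5e-11). HRK, a further death-promoting member, fell from 1.04 and 1.39 CPM to 0.248 and 0.11 CPM (log2 fold change −2.75). Of 24 death receptor, caspase and inhibitor genes 8 rose and 7 fell. The caspase 8 inhibitor CFLAR rose from 468 and 439 CPM to 967 and 949.9 CPM (log2 fold change 1.08). CASP6 rose by a log2 fold change of 0.73. BIRC5, an inhibitor of apoptosis that also acts in mitosis, fell from 33.98 and 41.8 CPM to 12.02 and 13.3 CPM (log2 fold change −1.58), and the necroptosis effector MLKL fell by 0.88.

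Proliferation genes fell together. All 63 tested mitotic genes fell (median log2 fold change −1.37), as did 54 of 63 DNA replication and E2F genes (median −1.02), and no gene of either list rose. Among replication genes the ubiquitin ligase subunit DTL was at 42.5 and 42.2 CPM in TAK-981 and 9.29 and 10.2 CPM in combo, a log2 fold change of −2.11 (standard error 0.078, adjusted p = 2.9e-13). The checkpoint mediator CLSPN fell from 32.6 and 32.6 CPM to 9.72 and 10.01 CPM (log2 fold change −1.72). E2F1 fell from 20.2 and 26.7 CPM to 5.39 and 5.66 CPM (log2 fold change −2.08). RRM2, a subunit of the enzyme that makes deoxyribonucleotides, fell from 149 and 180.0 CPM to 37.2 and 42.1 CPM (log2 fold change −2.05). Of the genes whose E2F sites are printed above, DTL, CLSPN and E2F1 are of this list and NCAPG is a mitotic gene. Among mitotic genes the condensin subunit NCAPG fell from 66.8 and 71.3 CPM to 21.4 and 19.2 CPM (log2 fold change −1.77) and the spindle motor KIF11 fell from 81.4 and 82.8 CPM to 31.3 and 32.2 CPM (−1.37).

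Regulators of G1 fell in 13 of 21 cases, and the D cyclins split. CCND3 rose from 15.2 and 16.8 CPM to 111 and 116 CPM, a log2 fold change of 2.83 (standard error 0.088, adjusted p = 2.5e-14). CCND2 (cyclin D2) fell from 1332 and 1401 CPM to 677 and 749.7 CPM (−0.94), and CCND1 fell from 10.3 and 10.9 CPM to 4.95 and 4.51 CPM (−1.16). CCND3 was the only G1 regulator of the list that rose. CCNG2, a cyclin of arrested cells, fell by 1.00 on the log2 scale, and the inhibitors CDKN1A (−0.45) and CDKN1B (−0.47) also fell. Clustered histone genes, whose mRNAs accumulate in S phase, fell in 45 of 53 cases with a median of −1.01, HIST1H3C by 1.51 and HIST1H2BI by 0.94. Histone genes share near-identical sequence, so the split of reads among them is uncertain.

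Genes of lipid synthesis and of energy metabolism fell. Of 34 genes of sterol and fatty acid synthesis 24 fell and 1 rose (median −0.74). SCD, the desaturase that makes oleate, was at 201 and 213 CPM in TAK-981 and 44.3 and 53.7 CPM in combo, a log2 fold change of −2.08 (standard error 0.074, adjusted p = 1.5e-13). HSD17B7, an enzyme of sterol synthesis, was the member that rose (0.60). Glycolysis genes fell in 19 of 24 cases and none rose, with a median of −0.42. LDHA, which makes lactate, fell from 353 and 454 CPM to 151 and 150.5 CPM (−1.42), ENO2 fell by 0.73, and GAPDH, often used as a reference gene, fell from 932 and 1045 CPM to 627 and 671 CPM (−0.61). Of 54 nuclear genes of oxidative phosphorylation 40 fell and none rose (median −0.32), NDUFV2 by 0.66 and COX7A2 by 0.72. The ATF4 amino acid list had 18 falls and 3 rises among 39 genes, with the transporter SLC1A4 at −0.88 and the serine synthesis enzyme PSAT1 at −0.82, while DDIT4 and the lipoprotein receptor VLDLR (1.28) rose.

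Genes of the secretory apparatus of plasma cells fell. Of 41 genes of the endoplasmic reticulum and its unfolded protein response 32 fell and 5 rose. The chaperone HSP90B1 fell from 1332 and 1371 CPM to 605 and 601 CPM, a log2 fold change of −1.16 (standard error 0.053, adjusted p = 6.3e-12), and EDEM1, which acts in disposal of misfolded glycoproteins, fell by 0.77. HERPUD1 (0.54) and the stress sensor ATF6 (0.64) rose. Of 22 plasma cell markers 15 fell and 3 rose, with SEC11C, a subunit of the signal peptidase, at −0.97. The rises were led by FCRL5, a surface receptor of B lineage cells, from 3.01 and 1.90 CPM to 29.9 and 27.1 CPM (log2 fold change 3.53, adjusted p = 8.3e-12), and FCRL2, from 3.22 and 2.21 CPM to 10.8 and 9.40 CPM (1.89). Among 25 regulators of plasma cells and B cells 7 rose (28.0%) and 4 fell (16%). BCL6, the repressor of germinal centre B cells, rose from 5.08 and 4.27 CPM to 13.3 and 16.8 CPM (1.69) and BACH2, a repressor of plasma cell fate, from 60.3 and 60.4 CPM to 119.6 and 131 CPM (1.05). IRF4, on which myeloma cells depend, fell from 774 and 841 CPM to 514 and 568 CPM (−0.58), and the coactivator POU2AF1 fell by 1.16.

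Most genes of antigen presentation fell. Of 13 MHC class II genes 11 fell and none rose, with the lowest list median, −1.61. HLA-DRA was at 283 and 257 CPM in TAK-981 and 78.2 and 73.5 CPM in combo, a log2 fold change of −1.83 (standard error 0.068, adjusted p = 3.3e-13), and CD74, the invariant chain, went from 1262 and 1201 CPM to 389 and 443 CPM (−1.57). In the class I pathway 12 of 18 genes fell, B2M by 0.66 and the chaperone CALR by 1.06, while the peptidase ERAP2 rose by 1.13. HLA genes are polymorphic and alike in sequence, which makes their split of reads uncertain. Of 32 NF-κB genes and targets 16 fell and 2 rose. The chemokine CCL3 fell from 273 and 335 CPM to 39.2 and 39.6 CPM, a log2 fold change of −2.95 (standard error 0.09, adjusted p = 2.5e-14), and CCL5 fell from 18.5 and 18.4 CPM to 3.72 and 5.99 CPM (−1.91). NFKBIA, the inhibitor of NF-κB, rose from 61.5 and 69.4 CPM to 117 and 121 CPM (0.87), and IER3 rose by 1.27, which did not pass without combo replicate 2 (0.84, adjusted p = 0.12). Of 54 interferon response genes 9 rose (16.7%) and 12 fell (22.2%), near the shares over all tested genes. ISG20 (1.99) and IFI44L (1.15) rose, and CXCL10 (−2.61) and GBP4 (−0.90) fell.

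Among 30 cytokine signalling genes 8 rose and 8 fell, with the feedback inhibitor SOCS2 up from 9.28 and 8.44 CPM to 29.7 and 28.1 CPM (log2 fold change 1.70, adjusted p = 6.2e-10), IL21R down by 1.07 and the shared receptor chain IL2RG down by 0.76. Adhesion and homing genes fell in 16 of 24 cases and rose in 2, CXCR4 and the integrin ITGA6 (0.33). The hyaluronan receptor HMMR fell by 1.48. PECAM1, an adhesion molecule of endothelial and plasma cells that is also on the list of other cell types, fell from 12.7 and 12.04 CPM to 2.11 and 3.08 CPM (−2.24), and CD3E, a T cell marker, from 1.76 and 2.11 CPM to 0.372 and 0.77 CPM (−1.73).

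Further lists had mixed or few changes, again beside 14.5% of all tested genes that rose and 20.6% that fell. Of 32 genes of FOXO, PI3K and insulin signalling 16 rose and 6 fell, with PIK3IP1, an inhibitor of PI3K, at 1.23, the arrestin ARRDC3 at −0.61 and SESN3 at −0.86. Clock genes rose in 8 of 20 cases and fell in 4, with NFIL3 at 0.75, CLOCK at 0.53, ARNTL2 at −0.81 and BHLHE40 at −1.20. Of 29 p53 targets 8 rose, SESN1 by 0.71 and AEN by 0.49, and 4 fell, BTG2 by 0.58. In AP-1 and immediate early genes 7 of 24 rose, EGR1 by 1.11 and KLF4 by 0.94, and 5 fell, FOS by 1.02. MAPK feedback genes rose in 5 of 22 cases and fell in 4, with SPRY1 at 1.43, RGS1 at −1.27 and PHLDA1 at −1.68. In ribosome biogenesis 11 of 56 rose and 3 fell, with POLR1E, a subunit of RNA polymerase I, at 0.85, DDX10 at 0.41, BYSL at −0.41 and NCL at −0.31, the last of which did not pass without TAK-981 replicate 2 (−0.20, adjusted p = 0.0527). The MYC network had 2 rises and 3 falls among 12 genes, with MYC at 0.27, MYCL at 0.42 (0.31, adjusted p = 0.17, without TAK-981 replicate 1 and 0.33, adjusted p = 0.19, without combo replicate 2), MXD3 at −0.88 and MYCN at −1.40. Autophagy and lysosome genes had 3 rises and 12 falls among 39, with MITF at 0.78, TFEB at 0.34 (0.25, adjusted p = 0.06, without TAK-981 replicate 1 and 0.29, adjusted p = 0.06, without combo replicate 2), the protease CTSB at −0.52 and WIPI1 at −0.51. ULK1 did not pass (0.08, adjusted p = 0.49). Redox genes and metallothioneins had 9 falls among 17, PRDX1 at −1.06 and TXN at −0.58, and MT1X was the member that rose, at 1.74.

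The SUMO pathway itself, the target of the drug present in all 4 libraries, had 2 rises and 4 falls among 24 genes and a median of −0.01, which was 0.03 when libraries were scaled by size only. SAE1, a subunit of the SUMO-activating enzyme, was at 56.4 and 58.8 CPM in TAK-981 and 44.7 and 45.2 CPM in combo (−0.36, adjusted p = 0.00044). SUMO3 fell by 0.26. The other subunit UBA2 fell by 0.21, a call that was lost without TAK-981 replicate 1 (−0.13, adjusted p = 0.20) and without combo replicate 2 (−0.11, adjusted p = 0.35). The ligase PIAS1 (0.27) did not pass without TAK-981 replicate 2 (0.15, adjusted p = 0.16) or combo replicate 1 (0.25, adjusted p = 0.07), and RANBP2 (0.20) did not pass without TAK-981 replicate 2 (0.16, adjusted p = 0.0982), combo replicate 1 (0.21, adjusted p = 0.0513) or combo replicate 2 (0.18, adjusted p = 0.0874). ZFP36, an mRNA decay factor, was at 0.16 and did not pass without TAK-981 replicate 1 (0.13, adjusted p = 0.16) or combo replicate 2 (0.09, adjusted p = 0.35).

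**Figure D2:**
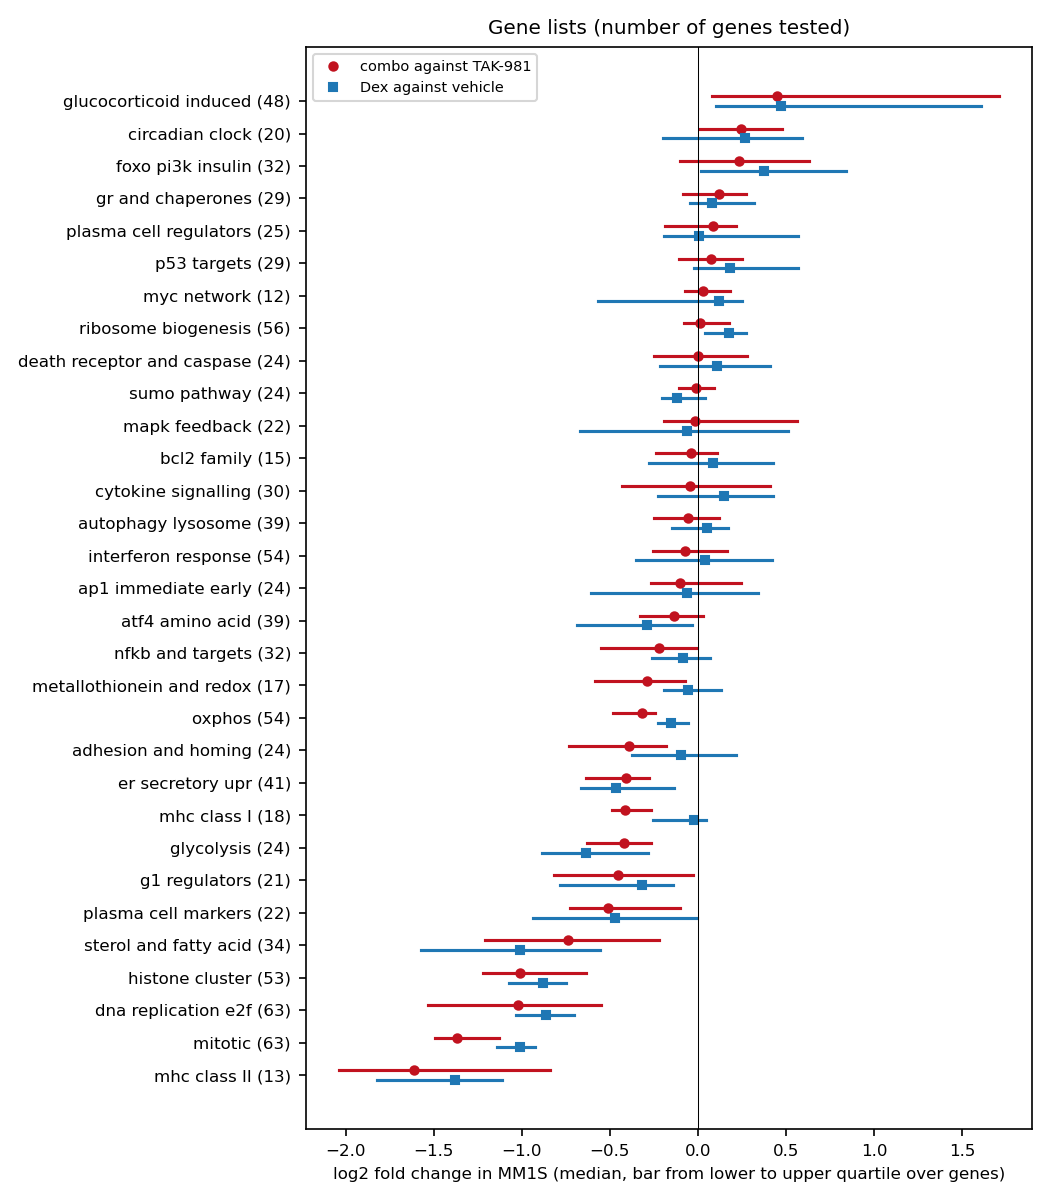
Median log2 fold change of each gene list in MM1S for combo against TAK-981 (circles) and Dex against vehicle (squares), with bars from the lower to the upper quartile over the genes tested. For combo against TAK-981, MHC class II (−1.61) and mitotic genes (−1.37) are lowest and glucocorticoid-induced genes highest (0.45). The squares of these lists are at −1.38, −1.01 and 0.47, and that of sterol and fatty acid genes is at −1.01.

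The same Dex addition without TAK-981, Dex against vehicle in MM1S, used the 4 other MM1S libraries. It changed 6017 genes (42.3%), 2954 up (20.8%) and 3063 down (21.5%). Of the 2063 genes that rose when Dex was added to TAK-981, 1189 (57.6%) also rose without TAK-981, which is 40.3% of those that rose there. Of the 2927 that fell, 1716 (58.6%) also fell without TAK-981, 56.0% of those that fell there. Genes changed in both additions numbered 3098, and 2905 of them (93.8%) went the same way. Of the 980 genes changed at least 2-fold with TAK-981 present, 725 (74.0%) also changed without it in the same direction.

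The difference between the Dex response with and without TAK-981 was tested as an interaction and passed for 2125 genes (14.9%), higher for 777 (5.47%) and lower for 1348 (9.48%). With libraries scaled by size only, the split was 1033 higher and 908 lower, and with the further limit of a 2-fold difference it was 159 higher and 100 lower. The count was 779 when only the groups compared were fitted. It also moved with single libraries. It was 1044 without vehicle replicate 1, 1348 without vehicle replicate 2, 1102 without Dex replicate 2, 1108 without combo replicate 1 and 3724 without TAK-981 replicate 1. Among the 2063 genes that rose with TAK-981 present, the rise differed from that without TAK-981 for 286 in the larger and 127 in the smaller direction. Among the 2927 that fell, the fall was larger for 652 and smaller for 138. Both sets were chosen by their change with TAK-981 present, which is part of the interaction. This choice favours the larger direction, so these counts do not tell which response was stronger. Of the 815 that rose with TAK-981 present and did not pass without it, the difference itself passed for 171 (21.0%), and of the 1077 that fell with TAK-981 present and did not pass without it, for 377 (35.0%). In reverse, 1631 genes rose without TAK-981 and did not pass with it, and the difference passed for 535 of them (32.8%), and 1288 fell without it and did not pass with it, with 338 (26.2%) differing. By list, the difference was lower in 25 and higher in 0 of 63 mitotic genes, lower in 16 and higher in 5 of 63 replication genes, and higher in 15 and lower in 2 of 34 sterol and fatty acid genes.

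**Figure D3:**
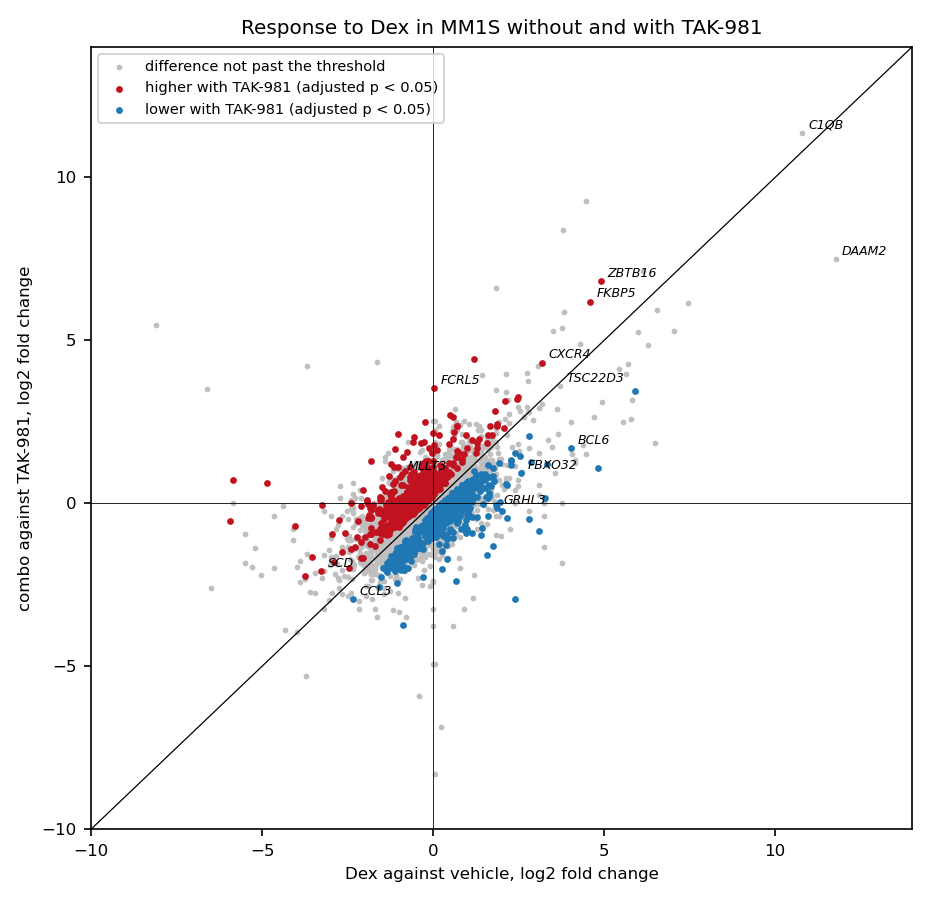
Log2 fold change of each tested gene for Dex against vehicle (x axis) and combo against TAK-981 (y axis) in MM1S, coloured where the difference passed (777 higher, 1348 lower), with the line of equal change. FKBP5 and ZBTB16 lie above the line at the upper right, and BCL6 and FBXO32 lie below it.

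Of 48 glucocorticoid-induced genes, the Dex response was higher with TAK-981 present for 8 and lower for 14. FKBP5 was at 68.6 and 68.95 CPM in vehicle and 1725 and 1602 CPM in Dex, a log2 fold change of 4.60, so that its rise in the presence of TAK-981 was larger by 1.59 on the log2 scale (standard error 0.091, adjusted p = 5.7e-09). Its TAK-981 level was below the vehicle level and its combo level above the Dex level. CXCR4 went from 25.05 and 22.97 CPM to 222 and 216 CPM without TAK-981, with a difference of 1.13 (adjusted p = 5.9e-07). For ZBTB16 the difference was 1.89 (adjusted p = 0.0012) and for CCND3 it was 1.02 (adjusted p = 1.8e-05). For TSC22D3 it was −0.13 (adjusted p = 0.51), for SMAP2 −0.02 (adjusted p = 0.91) and for DDIT4 0.59 (adjusted p = 0.18), none of which passed. Not all of the 14 list members with a lower response are named here. Among them were BCL6, described below, PIK3IP1 (difference −0.70, adjusted p = 0.0003), NFKBIA (−0.39, adjusted p = 0.044) and ZFP36 (−0.29, adjusted p = 0.032). SGK1, also among them, did not pass with Dex alone (−0.09) and fell with TAK-981 present (difference −0.49, adjusted p = 0.001).

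For other genes that rose, the change without TAK-981 was small or did not pass. TSPYL2, a nucleosome assembly family member, was at 11.5 and 11.9 CPM in vehicle and 11.8 and 11.7 CPM in Dex, against 9.28 and 8.70 CPM in TAK-981 and 38.5 and 41.8 CPM in combo (difference 2.16). With Dex alone TSPYL2 did not pass (0.00, adjusted p = 0.98). PLXNA1 was at 77.1 and 78.4 CPM in vehicle and 118 and 120.4 CPM in Dex, then 68.6 and 80.2 CPM in TAK-981 and 328 and 352 CPM in combo (difference 1.58). FCRL5 had 1.32 and 1.54 CPM in vehicle and 1.66 and 1.26 CPM in Dex, and its difference of 3.50 (adjusted p = 2.7e-06) was the largest that passed among the named genes. SOCS2 stood at 13.8 and 10.5 CPM in vehicle and 11.2 and 11.2 CPM in Dex (difference 1.83, adjusted p = 5.9e-07). MLLT3, a reader of acetylated chromatin in elongation complexes, went in opposite directions. It fell from 36.8 and 36.6 CPM to 18.6 and 20.1 CPM without TAK-981 and rose from 36.6 and 32.9 CPM to 67.4 and 62.3 CPM with it (difference 1.82, adjusted p = 6e-09). Such opposite calls were found for 193 of the 3098 genes changed in both.

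The Dex response of other genes was smaller or opposite with TAK-981 present. GRHL3, an epithelial transcription factor, was at 81.8 and 85.4 CPM in vehicle and 305 and 302 CPM in Dex, and at 167 and 162 CPM in TAK-981 and 141 and 153 CPM in combo, a difference of −2.02 (adjusted p = 4e-11). Its own change in combo against TAK-981 (−0.16, adjusted p = 0.039) did not pass without TAK-981 replicate 1 (−0.14, adjusted p = 0.11) or combo replicate 1 (−0.10, adjusted p = 0.28). FBXO32, the ubiquitin ligase subunit atrogin-1, was at 39.4 and 33.2 CPM in vehicle, 218 and 216 CPM in Dex, 115 and 109.8 CPM in TAK-981 and 207 and 220.3 CPM in combo, so both Dex-treated groups reached the same range from different starting levels (difference −1.65). The kinase NUAK1 rose with Dex by 1.79 without and 0.68 with TAK-981. TCN2, the vitamin B12 carrier transcobalamin, went from 60.2 and 60.9 CPM to 107 and 124 CPM without TAK-981 and from 118 and 129.6 CPM to 74.6 and 82.1 CPM with it (difference −1.59), and YIPF1 did likewise (0.73 and −0.53). BCL6 was at 2.07 and 1.59 CPM in vehicle and 31.7 and 28.4 CPM in Dex, and its difference of −2.34 (adjusted p = 2.7e-06) was the most negative that passed among the named genes. IL2RG rose by 0.28 without TAK-981 and fell by 0.76 with it.

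**Figure D4:**
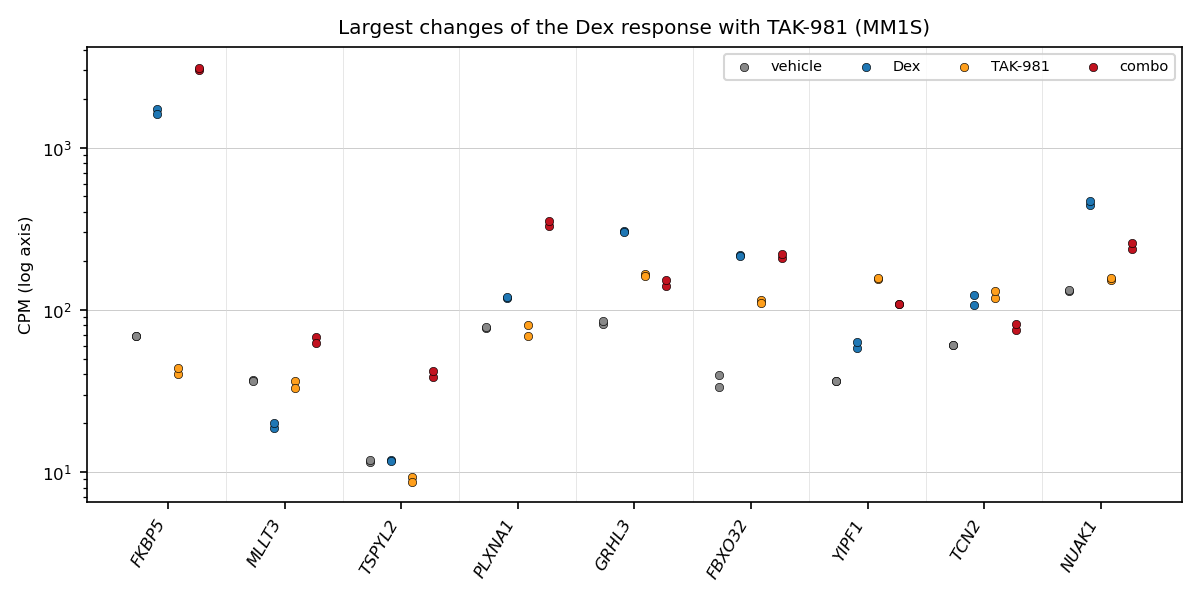
CPM on a log axis in each of the 8 MM1S libraries for 4 of the 5 genes with the smallest adjusted p for a more positive Dex response with TAK-981 (left) and the 5 for a more negative response (right). TSPYL2 is at 11.8 and 11.7 CPM in Dex and 38.5 and 41.8 CPM in combo, and GRHL3 at 305 and 302 and 141 and 153 CPM.

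Among genes that fell, E2F1 and RRM2 fell further with TAK-981 present. E2F1 was at 67.2 and 73.9 CPM in vehicle and 27.3 and 37.2 CPM in Dex, a log2 fold change of −1.13, against −2.08 with TAK-981 (difference −0.95, adjusted p = 0.0072). RRM2 had a log2 fold change of −0.93 without and −2.05 with TAK-981 (difference −1.12, adjusted p = 2.9e-05). In both genes the combo libraries were the lowest of the 8. BCL2L1 was at 443 and 469 CPM in vehicle and 279 and 312 CPM in Dex, and its fall was larger with TAK-981, by −0.58 (adjusted p = 0.00031). For BCL2L11 the rise differed by 0.27 (adjusted p = 0.028). SCD, in contrast, was at 876 and 882 CPM in vehicle and 89.9 and 92.6 CPM in Dex, a larger fall without TAK-981 (difference 1.19, adjusted p = 3.9e-07), and its TAK-981 level was already below vehicle. HSD17B7 fell by 0.55 without TAK-981 and rose by 0.60 with it.

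Switched on from at most 3 counts in each TAK-981 library to at least 30 in each combo library were 7 genes, and 0 were switched off. C1QB, the B chain of complement C1q whose GR element is printed above, had 0 and 0 counts in TAK-981 and 243 and 306 in combo, at least 106-fold higher against a floor of 3 counts per library. It also rose from 0 and 0 counts to 176 and 242 with Dex alone. OLAH, a thioesterase of fatty acid synthesis, had 0 and 0 counts in TAK-981 and 70 and 59 in combo, at least 25.2-fold higher. With Dex alone it had 2 and 3 counts and in vehicle 0 and 0, and with 0 counts in both groups without Dex the interaction could not be estimated for it. DAAM2, a formin of Wnt signalling, had 1 and 2 counts in TAK-981 and 262 and 250 in combo, a ratio of 193 (95% exact interval 65.5 to 937, for counting error only). With Dex alone DAAM2 had 429 and 402 counts, and in vehicle 0 and 0. COL4A2, a collagen of basement membranes, had 1 and 1 counts and then 37 and 46, a ratio of 46.8 (12.6 to 393), and 1 and 2 counts in Dex. LOC285847 had 0 and 0 counts and then 35 and 35, and LOC100506422 had 1 and 0 and then 30 and 34. With Dex alone their counts were 13 and 17 for LOC285847 and 27 and 31 for LOC100506422. MIR5690 had 0 and 2 counts and then 162 and 111, and 54 and 30 with Dex alone. The table places it on chromosome 6 from 35632494 to 35632566, minus strand (hg19), within FKBP5 from 35541362 to 35696397 on the same strand, and LOC285847 overlaps the end of FKBP5, so their reads cannot be told apart from those of FKBP5.

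In MM1R, the line labelled glucocorticoid resistant, the same addition of Dex to TAK-981 changed 0 of 14215 genes (0%) by edgeR and 0 by DESeq2. It left 214 genes at an unadjusted p under 0.05 by edgeR, a share of the tested genes below 0.05. It changed 1 without combo replicate 1, 3 when only the MM1R groups compared were fitted and 9 without the filter on low counts. The main fit estimates the spread of each gene over all 16 libraries. Chi-square per degree of freedom of the replicate pairs was 4.63 to 21.2 in MM1S. For the MM1R TAK-981 and combo pairs it was 2.44 and 2.08. The part of this shared spread in the MM1R counts was not tested. The difference between the lines passed for 3269 genes (23.0%), 1208 (8.5%) higher in MM1S and 2061 (14.5%) lower. For the 980 genes with a 2-fold change in MM1S, the median size of the log2 fold change was 1.41 in MM1S and 0.10 in MM1R, and the line difference passed for 762 (77.8%). These genes were chosen by their change in MM1S, which is part of the line difference. The choice thus sets a floor for the MM1S median and raises the share that passed. FKBP5 was at 58.1 ± 4.51 CPM in MM1R TAK-981 and 58.0 ± 1.67 CPM in MM1R combo (mean ± SD, n = 2), a log2 fold change of 0.00. NR3C1 was at a mean of 20.4 CPM in MM1R TAK-981 and 19.8 CPM in MM1R combo. In MM1S its means were 337 CPM in TAK-981 and 282 CPM in combo. The part of this level in the line difference was not tested. In MM1R the values were −0.10 for CXCR4, −0.08 for TSC22D3, −0.07 for BCL2L11, 0.09 for E2F1, 0.09 for SCD and −0.03 for HLA-DRA, and none of these passed.

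**Figure D5:**
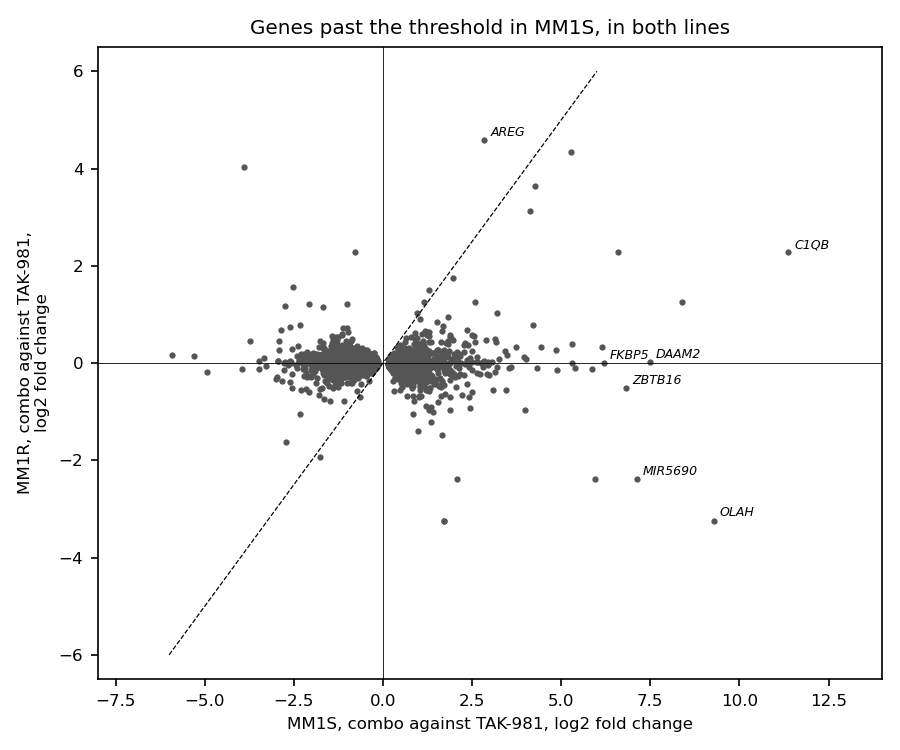
Log2 fold change of combo against TAK-981 in MM1S (x axis) and MM1R (y axis) for the 4990 genes that passed in MM1S, with the dashed line of equal change. Most points lie along 0 on the MM1R axis, and FKBP5 is at 6.19 in MM1S and 0.00 in MM1R.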

How the data were processed

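Total RNA was extracted with the miRNeasy kit and sequenced after depletion of ribosomal RNA. The authors deposited raw counts per gene and library without normalization. The submitters' processing notes name bcl2fastq 2.18.0.12, STAR 2.6.0, HTSeq 0.6.0, edgeR 3.28.1 and hg19. Whether counting used strand is not given in the sources used here, so overlapping and antisense genes cannot be told apart. Each of the 16 columns matched a single sample title.

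Genes were kept with edgeR's filterByExpr and scaled with TMM, and all 16 libraries were fitted together with a coefficient for each group (robust quasi-likelihood, 8 residual degrees of freedom, edgeR 4.0.16, R 4.3.3). The threshold for a change was 0.05 on p-values adjusted by Benjamini-Hochberg. Named genes are the 12 up and 12 down genes with the smallest adjusted p (at least 2-fold, mean log2 CPM at least 3, groups apart), up to 2 up and 2 down per list, the study's genes, the 5 up and 5 down for the interaction, and the 5 switched genes with most counts. Of the genes so named, 3 are not reported here. LOC285847 and LOC100506422 were named after their values were seen. The 33 gene lists and the genes named were chosen with earlier results of these data known.

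Alternatives were RLE, library size only, no filter, a replicate block, DESeq2 1.42.0, only the groups compared, a 2-fold limit and leaving out each library. In simulated counts for the combo comparison (14083 genes), 81% of 1.5-fold and 97% of 2-fold changes were called, and 8 unchanged genes were called with them. The changes were planted only in genes above a limit on the mean count, so recovery for low genes was not measured. Simulated libraries were independent and had the same spread per gene in all groups. In the data, chi-square per degree of freedom of the replicate pairs ran from 2.08 (MM1R combo) to 21.2 (MM1S TAK-981). Recovery and false calls with such unequal pairs were not measured.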

Additional observations from a re-analysis of the deposited data

Results flagged for a closer look

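The response of MM1S to Dex differed with and without TAK-981, by the interaction test of edgeR, for 2125 genes, and the response to Dex in the presence of TAK-981 differed between MM1S and MM1R for 3269 genes. Among the named genes the interaction passed for 64 of 137, beside 14.9% of all tested genes. Of the 137, 9 were chosen by this very test. Most others were chosen by a small adjusted p in combo against TAK-981, which is part of the interaction. The choice raises the count, which is a description only. The values that follow are these differences in log2 fold change, combo against TAK-981 less Dex against vehicle.

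The difference was at least 1 in the negative direction for BCL6 (−2.34), GRHL3 (−2.02), FBXO32 (−1.65), TCN2 (−1.59), GBP4 (−1.47), YIPF1 (−1.27), RRM2 (−1.12), NUAK1 (−1.11) and IL2RG (−1.04). Between −1 and −0.5 were E2F1 (−0.95), FAM111B (−0.90), PHLDA1 (−0.89), PRDX1 (−0.87), CLSPN (−0.81), DTL (−0.76), PIK3IP1 (−0.70), HERPUD1 (−0.64), BTG2 (−0.63), BYSL (−0.63), ITGA6 (−0.62), IL21R (−0.61), CCL3 (−0.61), CALR (−0.61), BIRC5 (−0.60), BCL2L1 (−0.58), BMF (−0.57) and NCAPG (−0.50). Smaller negative differences were those of SGK1 (−0.49), CD74 (−0.45), COX7A2 (−0.41), NFKBIA (−0.39), POU2AF1 (−0.37), CTSB (−0.36), SLC1A4 (−0.35), EDEM1 (−0.35), HSP90B1 (−0.33) and ZFP36 (−0.29).

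Positive differences under 1 were found for PFKFB2 (0.23), BCL2L11 (0.27), ZFP36L2 (0.29), IRF4 (0.32), PIAS1 (0.39), POLR1E (0.41), PSAT1 (0.45), LRRK1 (0.50), RCSD1 (0.71), MITF (0.75), FAR2 (0.77) and MYCL (0.97). Those of at least 1 were CCND3 (1.02), CXCR4 (1.13), HSD17B7 (1.15), SCD (1.19), VLDLR (1.44), PECAM1 (1.52), PLXNA1 (1.58), FKBP5 (1.59), EGR1 (1.79), MLLT3 (1.82), SOCS2 (1.83), ZBTB16 (1.89), TSPYL2 (2.16), FCRL2 (2.48) and FCRL5 (3.50). The smallest of these in size, such as PFKFB2 (adjusted p = 0.048), were close to the threshold. With 2 libraries a group no test of a single outlying library was made.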

How the results depend on the processing

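Of the 1370 values of named genes under the alternatives, 1334 kept direction and side of the threshold, 36 values (of 12 genes) lost the call, 0 gained it and 0 reversed. The limit of a 2-fold change left 980 genes for combo against TAK-981, 1081 for Dex against vehicle, 259 for the interaction and 874 for the line difference. The interaction passed for 779 genes when only the groups compared were fitted, for 1841 with DESeq2, and for 1044 to 3724 with a library left out. In MM1R 9 genes passed without the filter, 3 with only the groups compared and 0 to 1 with a library left out. With a library left out, combo against TAK-981 gave 3662 to 5309 genes, Dex against vehicle 4305 to 5593 and the line difference 2317 to 4072. With 10 in place of 30 counts, 16 genes were switched on and 13 off. The cause of these changes was not tested.

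Replicate numbers are shared by all groups, but no label says that a number marks a shared culture or day, and 2 pairs are too few to settle it. The correlation of replicate differences over 9779 genes was 0.38 between TAK-981 and combo in MM1S, and from 0.129 to 0.603 over MM1S groups. A replicate block gave 6059 genes for combo against TAK-981 (4983 of the 4990), 7022 for Dex, 3579 for the interaction, 0 in MM1R and 4387 for the line difference.

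Medians of 6 lists near 0 changed sign. With library size only they were 0.00565 for the BCL2 family, 0.03 for MAPK feedback and 0.0322 for SUMO. With only the groups compared they were 0.0036 for MAPK feedback and 0.0122 for SUMO. With a library left out they ran from −0.117 to 0.0688 for the BCL2 family, from −0.00664 to 0.064 for death receptors and caspases, from −0.0044 to 0.0636 for the MYC network, from −0.00438 to 0.0762 for ribosome biogenesis, from −0.0201 to 0.0378 for MAPK feedback and from −0.0449 to 0.0267 for SUMO. Precision was limited by 2 libraries per group and, for low genes, by counts, with a median standard error of 0.48 for genes under a mean log2 CPM of 0 and 0.07 for those over 6.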
